A study of Homo sapiens with 9 samples.

Results

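ESR1, PGR, GATA3, FOXA1, ELF5, SPDEF, SOX9, SOX10 and TFAP2A are 9 genes that encode hormone receptors and transcription factors of the mammary epithelium. They were selected by symbol from 62666 genes in the deposited tables, and all 9 were found. Polyadenylated RNA of 3 human cell lines was sequenced, with 3 libraries per line and 9 in all, to read how expression changes as breast cancer progresses. MCF10A, labelled wild type, is an established line of mammary epithelial cells that forms no tumours. Cells of this line given an activated HRAS gene yielded MCF10AT1, the premalignant stage, while MCF10Ca1a stands for the stage that forms tumours. Each stage was 1 line. All lines were grown with horse serum, insulin, epidermal growth factor, hydrocortisone (a glucocorticoid) and cholera toxin. The serum was at 2.5% for MCF10AT1 and at 5% for MCF10A and MCF10Ca1a, so serum and line cannot be told apart in comparisons with MCF10AT1. The labels list no oestrogen or progestin among the supplements. They number the libraries of a line without saying whether these came from separate cultures, so p-values measure only the spread between libraries, which may be technical.

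In the mammary gland, luminal cells face the duct or alveolus and basal cells surround them. ESR1 encodes oestrogen receptor alpha and PGR the progesterone receptor, an oestrogen-induced gene, and both mark a hormone-sensing part of the luminal layer. GATA3 and FOXA1 maintain luminal identity, and FOXA1 opens chromatin for the oestrogen receptor. ELF5 directs the alveolar, milk-producing programme, and SPDEF is an ETS factor of luminal and secretory epithelium. SOX9 is found in luminal progenitors and mammary stem cells, SOX10 in neural crest cells and stem-like mammary cells, and TFAP2A is an AP-2 factor of surface and mammary epithelium.

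Each library held 62.9 to 69.5 M (M, 1e6) estimated counts in MCF10A and MCF10AT1 and 32.9 to 35.2 M in MCF10Ca1a. A library's limit for a count of 0 was taken as 3 counts, which is 0.0432 to 0.0477 counts per 1e6 (CPM) in MCF10A and MCF10AT1 and 0.0851 to 0.0911 CPM in MCF10Ca1a. EPCAM, a defining epithelial surface protein, was found in every library, at 40.1 ± 2.90, 169.7 ± 13.3 and 389.8 ± 6.36 transcripts per 1e6 (TPM, which is scaled by transcript length) in MCF10A, MCF10AT1 and MCF10Ca1a (SD, n = 3). Of 17 markers of fibroblasts, endothelium, leukocytes and fat cells, 10, 8 and 10 did not exceed 3 counts in any library of these lines. The T cell marker CD3E was at 0 throughout, and the fibroblast collagen genes COL1A2 and COL3A1, the endothelial gene CDH5 and the leukocyte gene PTPRC did not exceed 2 counts. The summed level of the list was 15.6 to 21.1 TPM in MCF10A, 31.3 to 35.5 TPM in MCF10AT1 and 54.1 to 61.7 TPM in MCF10Ca1a. The sum was higher in each later line, and its part in the results below was not tested. DCN, a matrix proteoglycan, led it in MCF10AT1 at 27.9 ± 2.17 TPM. In MCF10Ca1a CD68, a lysosomal protein of macrophages, led it at 31.1 ± 1.64 TPM, followed by PECAM1 at 18.7 ± 2.74 TPM and PLIN1, a lipid droplet protein, at 6.53 ± 0.441 TPM (SD, n = 3). Of the 7 tested genes of this list, 3 rose and 3 fell in MCF10Ca1a against MCF10A, with a median log2 change of -0.35. In MCF10AT1 against MCF10A 2 rose and 3 fell (-0.12), and in MCF10Ca1a against MCF10AT1 5 rose and 1 fell (1.54). The background over all genes is given below. DCN fell by 4.67 on the log2 scale in MCF10Ca1a against MCF10A (adjusted p = 2.93e-10, edgeR). COL1A1, the other gene named for this list, fell by 0.84 in the same comparison (adjusted p = 4.04e-06, edgeR). In bulk RNA, fewer cells with a transcript and less of it per cell cannot be told apart.

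SOX9, FOXA1 and ESR1 rose at each step from MCF10A through MCF10AT1 to MCF10Ca1a. GATA3 and TFAP2A differed little between the lines, and PGR, ELF5, SPDEF and SOX10 were at or near 0. TPM gave an order of the genes within each line. In MCF10A the order was TFAP2A, GATA3, FOXA1, SOX9 and ESR1, and only FOXA1 and SOX9 overlapped between libraries. In both derived lines it was SOX9, TFAP2A, FOXA1, GATA3 and ESR1, with no overlap between neighbours. SOX9 thus moved from the fourth place to the first.

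MCF10AT1 against MCF10A is called the first step, MCF10Ca1a against MCF10AT1 the second, and MCF10Ca1a against MCF10A both steps. Changes between lines were tested on counts with edgeR's quasi-likelihood test over 17910 genes, with Benjamini-Hochberg adjustment and a threshold of 0.05. Only 5 of the 9 genes had enough counts to be tested. In MCF10AT1 against MCF10A, 4 of 5 passed, 3 higher and 1 lower, where 61.6% of all genes tested passed (29.8% higher and 31.8% lower). In MCF10Ca1a against MCF10A, 5 of 5 passed, 4 higher and 1 lower, where 80.9% of all genes passed (39.0% higher and 41.9% lower). In MCF10Ca1a against MCF10AT1, 3 of 5 passed, all higher, where 78.4% of all genes passed (38.0% higher and 40.3% lower). With so many genes past the threshold, a call alone sets none of these genes apart, and the sizes below carry the description. The 3 comparisons share libraries and are not independent. The median log2 change over all genes tested was -0.0038, -0.05 and -0.04 at the first step, over both steps and at the second. These shares and medians are the background for each gene list below.

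**Figure D1:**
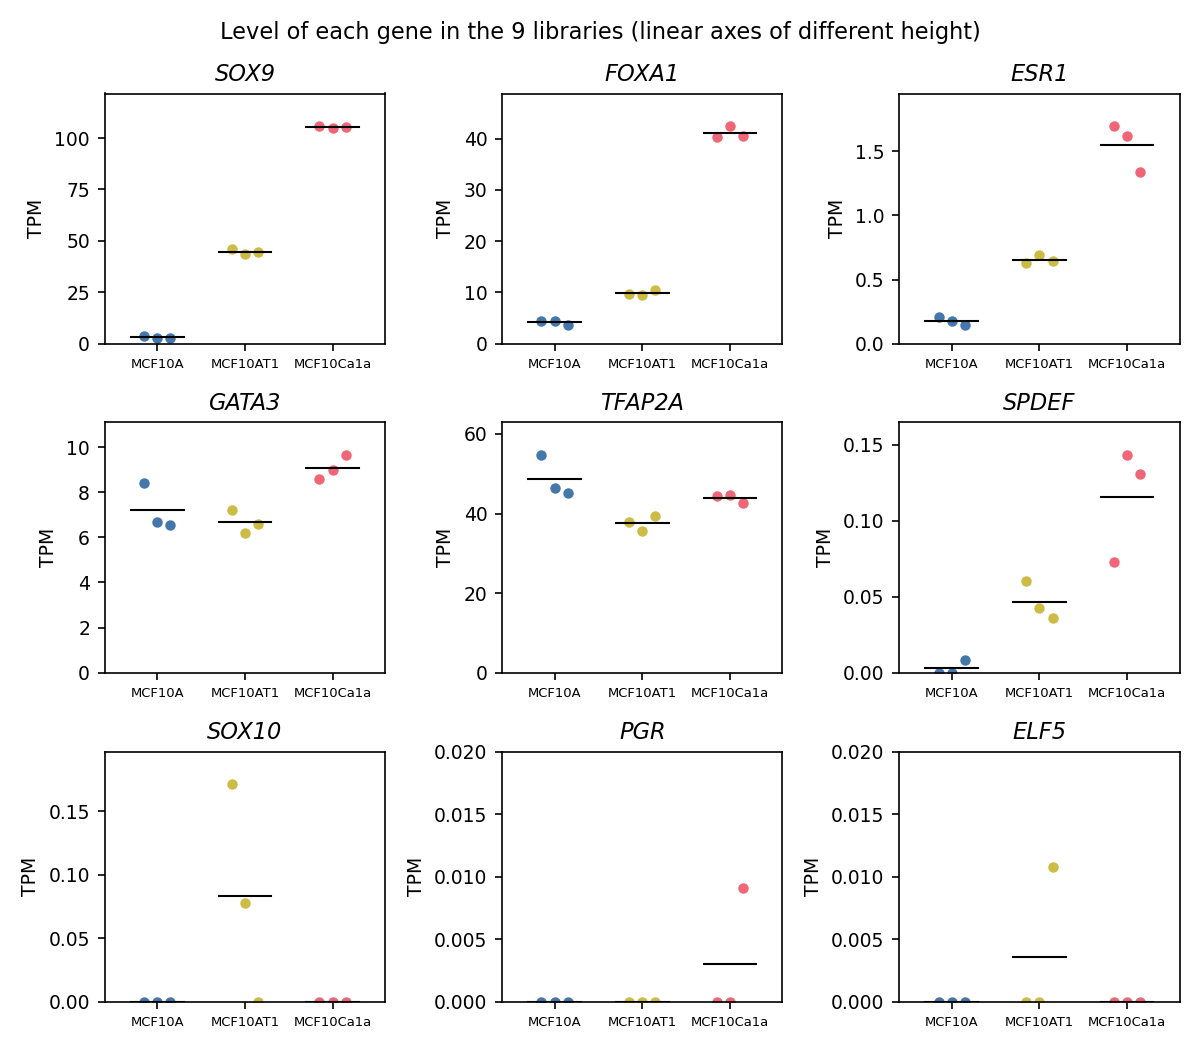
Level in TPM (linear y axes, each with its own height and starting at 0) of the 9 genes in the 3 lines; points are libraries (n = 3 per line) and black bars are line means. SOX9, FOXA1 and ESR1 stand in 3 separate steps, and GATA3 and TFAP2A stay within a narrow range.

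ESR1 (ENSG00000091831.25, chromosome 6, 151656672 to 152129619 on GRCh38.p14) was low in all lines but rose at each step. Its estimated counts were 52, 48 and 46 in the MCF10A libraries, 191, 184 and 159 in MCF10AT1 and then 233, 208 and 185 in MCF10Ca1a. Per length, ESR1 was at 0.177 ± 0.0293 TPM, 0.655 ± 0.0325 TPM and 1.55 ± 0.187 TPM (SD, n = 3), and no library of a line overlapped with those of another. The log2 change was 1.89 ± 0.139 (SE, adjusted p = 5.06e-08, edgeR) in MCF10AT1 against MCF10A, 1.13 ± 0.120 (9.78e-07) in MCF10Ca1a against MCF10AT1 and 3.02 ± 0.138 (8.92e-11) in MCF10Ca1a against MCF10A, an 8.09-fold difference. Even in MCF10Ca1a its level was below that of GATA3, FOXA1, SOX9 and TFAP2A.

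PGR (ENSG00000082175.16), the textbook target of the oestrogen receptor, had 0 counts in all 3 MCF10A libraries, all 3 MCF10AT1 libraries and 2 of 3 MCF10Ca1a libraries, and 2 counts in the other. It was not detectable at this depth in any line, and no difference can be read from it.

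FOXA1 (ENSG00000129514.8, chromosome 14, 37589552 to 37595249) had 418, 446 and 446 counts in MCF10A, 1147, 1149 and 1138 in MCF10AT1 and then 2153, 2041 and 2159 in MCF10Ca1a. The libraries of each line were close together and far from those of the others. Its level was 4.19 ± 0.470 TPM, 9.87 ± 0.462 TPM and 41.1 ± 1.18 TPM (SD, n = 3). FOXA1 was 2.67-fold higher in MCF10AT1 than in MCF10A (log2 change 1.42 ± 0.0549, SE, adjusted p = 7.71e-11, edgeR) and 3.44-fold higher again in MCF10Ca1a than in MCF10AT1 (1.78 ± 0.04999, adjusted p = 1.20e-12). Over both steps it was 9.18-fold higher (3.20 ± 0.0548, adjusted p = 7.63e-15).

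Promoter windows of FOXA1 and ESR1 are shown because these genes rose at both steps, as SOX9 did, and the windows hold the 6-base SOX motif ACAAAG, which was searched on both strands. The windows run from 250 bases before to 50 bases after a RefSeq transcript start on GRCh38.p14. Capitals mark each match, and CTTTGT is a match on the other strand. The FOXA1 window is chr14:37595200-37595499 (minus strand), and its start lies 215 bases from that of the main FOXA1 transcript. The ESR1 window is chr6:151807432-151807731 (plus strand), the one whose start is nearest to that of the main ESR1 transcript, at 131 bases. The main transcript starts at 151807551, within the window, and the marked match falls after that point.
FOXA1 promoter: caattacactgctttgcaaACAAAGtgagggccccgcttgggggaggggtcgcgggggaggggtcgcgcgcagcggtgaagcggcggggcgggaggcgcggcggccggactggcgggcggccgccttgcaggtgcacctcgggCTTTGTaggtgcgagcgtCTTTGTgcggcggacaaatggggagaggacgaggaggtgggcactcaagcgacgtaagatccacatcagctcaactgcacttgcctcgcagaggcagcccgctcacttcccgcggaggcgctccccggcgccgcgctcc
ESR1 promoter: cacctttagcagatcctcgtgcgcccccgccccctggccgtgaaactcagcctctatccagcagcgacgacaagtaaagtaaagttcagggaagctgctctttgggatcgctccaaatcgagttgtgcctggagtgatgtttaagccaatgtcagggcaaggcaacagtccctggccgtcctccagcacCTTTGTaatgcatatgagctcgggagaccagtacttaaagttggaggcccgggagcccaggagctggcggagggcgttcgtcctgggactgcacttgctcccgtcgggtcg
FOXA1 had 3 matches and this ESR1 window 1. At least 1 match was found in 16.07% of 35116 promoter windows of the same length, and at least 3 in 0.196%. The FOXA1 and ESR1 windows were picked for their matches, so these shares are no test of them. RefSeq windows were matched for 7 of the 9 genes, 20 windows in all. The SOX motif was in 3 of these 20 windows, a share close to that of all promoters. They were the FOXA1 window, 1 of 6 ESR1 windows and 1 of 6 windows of GATA3 (chr10:8060207-8060506), a gene that moved little. In the same FOXA1 window the ETS motif GGAAGT, held by 22.79% of all windows, occurred 1 time, and the AP-2 motif GCCNNNGGC (23.2% of windows), the GATA motif AGATAA (10.33%) and the forkhead motif TGTTTAC (3.42%) did not occur. The full palindromic oestrogen response element, held by 0.06% of windows, was in none of the 20. Its GGTCA arm, held by 37.38%, was in windows of TFAP2A, ESR1, GATA3, ELF5 and PGR. A match describes letters only. Binding was not measured here.

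GATA3 (ENSG00000107485.18, chromosome 10, 8045333 to 8075198), the usual partner of FOXA1 and oestrogen receptor alpha in luminal cells, moved little. It had 954, 769 and 857 counts in MCF10A, 961, 880 and 853 in MCF10AT1 and then 523, 511 and 571 in MCF10Ca1a, which is 7.21 ± 1.03 TPM, 6.68 ± 0.517 TPM and 9.07 ± 0.535 TPM (SD, n = 3). MCF10A and MCF10AT1 overlapped, while the lowest MCF10Ca1a library, at 8.59 TPM, lay just above the highest of MCF10A, at 8.40 TPM. GATA3 passed over both steps (log2 change 0.23 ± 0.0842, SE, adjusted p = 0.0199, edgeR) and in neither other comparison (0.09 ± 0.0812, adjusted p = 0.375 in MCF10AT1 against MCF10A, and 0.15 ± 0.0840, adjusted p = 0.122 in MCF10Ca1a against MCF10AT1). This call was lost with no filter on low counts (adjusted p = 0.0865), with length-scaled (0.0939) or scaled counts (0.0880), and without MCF10A replicate 2 (log2 change 0.16, 0.125), MCF10A replicate 3 (0.18, 0.0814) or MCF10Ca1a replicate 3 (0.19, 0.0846). Without MCF10A replicate 1, GATA3 passed in MCF10AT1 against MCF10A (0.19, 0.0140) and in MCF10Ca1a against MCF10AT1 (0.13, 0.0433). The second-step difference also passed with the 2 lines alone (0.16, adjusted p = 0.0197, edgeR) and on the 3 TPM scales (0.39, 0.44 and 0.39, adjusted p = 0.00364, 0.00665 and 0.0108, limma). On those scales the first-step difference had the other sign (-0.0927, -0.104 and -0.0927) and did not pass. The median of all genes also moved on these scales. Relative to it, GATA3 was at -0.0228, 0.0091 and -0.0896 at the first step and at 0.26, 0.23 and 0.38 at the second.

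SOX9 (ENSG00000125398.8, chromosome 17, 72121020 to 72126416) had the largest change of the 5 tested genes against MCF10A. Its counts were 511, 437 and 479 in MCF10A, 7839, 7548 and 7331 in MCF10AT1 and then 8274, 7454 and 8104 in MCF10Ca1a. Its level was 3.12 ± 0.494 TPM, 44.7 ± 1.40 TPM and 105 ± 0.508 TPM (SD, n = 3), and every library of a derived line was far above every MCF10A library. On the log2 scale the larger change was at the first step, with a 16.2-fold difference in MCF10AT1 against MCF10A (log2 change 4.02 ± 0.0675, SE, adjusted p = 1.89e-14, edgeR), followed at the second by a 1.95-fold difference in MCF10Ca1a against MCF10AT1 (0.96 ± 0.0567, adjusted p = 1.78e-09). Over both steps it was 31.6-fold higher (4.98 ± 0.0696, adjusted p = 1.63e-15). FOXA1 differed in this respect, with its larger log2 change at the second step.

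SOX10 (ENSG00000100146.20), the close relative of SOX9, was at 0 in all MCF10A and MCF10Ca1a libraries. In MCF10AT1 it had 6, 2.857 and 0 estimated counts, so it stood above the limit of 3 counts in 1 of 3 libraries. With no filter on low counts it passed in MCF10AT1 against MCF10A (adjusted p = 0.0197, edgeR), and on log2(TPM + 1) it did not (adjusted p = 0.170, limma). SOX8, the other member of this subgroup, did not exceed 1.143 counts in any library.

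TFAP2A (ENSG00000137203.15, chromosome 6, 10396677 to 10419659) was high in every line. It had 5982, 5413 and 6008 counts in MCF10A, 5071, 4731 and 5013 in MCF10AT1 and then 2633, 2486 and 2537 in MCF10Ca1a, which is 48.7 ± 5.18 TPM, 37.7 ± 1.93 TPM and 43.9 ± 1.05 TPM (SD, n = 3). In counts scaled to the library it was lower in MCF10AT1 than in MCF10A (log2 change -0.20 ± 0.0578, SE, adjusted p = 0.00733, edgeR) and in MCF10Ca1a (-0.26 ± 0.0587, adjusted p = 9.06e-04). The first of these missed the threshold without MCF10AT1 replicate 2 (-0.16, adjusted p = 0.05001), and the second on the TPM scales (adjusted p = 0.116 to 0.165). The difference between MCF10Ca1a and MCF10AT1 did not pass in counts (-0.06 ± 0.0588, adjusted p = 0.370), but passed as lower in MCF10Ca1a with no filter on low counts (-0.15, adjusted p = 0.0424, edgeR). In the other direction, on log2(TPM + 1) TFAP2A was higher in MCF10Ca1a by 0.22 (limma, adjusted p = 0.0286). The median of all genes also stood 0.13 higher on that scale, and relative to it the TFAP2A difference was 0.09.

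ELF5 (ENSG00000135374.11) had 1 count in 1 MCF10AT1 library and 0 in the other 8, and so was not detectable. SPDEF (ENSG00000124664.11) had 0, 0 and 1 counts in MCF10A, 7, 5 and 4 in MCF10AT1 and then 4, 7 and 7 in MCF10Ca1a. Every library of the derived lines was above the limit of 3 counts and no MCF10A library was. Per count sequenced, SPDEF was 15.9-fold higher in MCF10AT1 than in MCF10A (95% exact interval 2.48 to 668, covering counting error only) and 34.5-fold higher in MCF10Ca1a (5.44 to 1436). These ratios rest on the 1 count of MCF10A. Tested with no filter on low counts, SPDEF was higher in MCF10AT1 (adjusted p = 0.00229, edgeR) and in MCF10Ca1a (1.73e-05) than in MCF10A. On log2(TPM + 1) without a filter, the difference in MCF10AT1 did not pass (adjusted p = 0.146, limma) and that in MCF10Ca1a did (0.00194). Between MCF10Ca1a and MCF10AT1 the ratio was 2.16 (95% exact interval 1.04 to 4.53). That difference did not pass with no filter on low counts (adjusted p = 0.241, edgeR) but did on log2(TPM + 1) without a filter (adjusted p = 0.0246, limma). At 0.0462 ± 0.0126 TPM and 0.115 ± 0.0377 TPM (SD, n = 3) it stayed far below ESR1 in MCF10Ca1a.

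**Figure D2:**
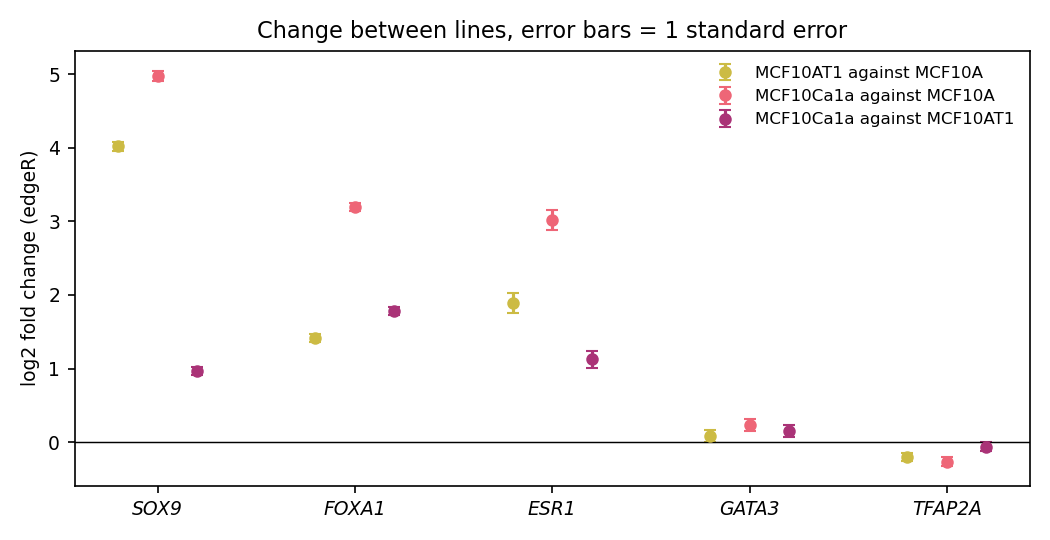
Fitted log2 fold change (y axis) of the 5 tested genes in the 3 comparisons; points are edgeR estimates and bars are 1 standard error. SOX9 reaches 4.98, FOXA1 3.20 and ESR1 3.02 in MCF10Ca1a against MCF10A, while GATA3 and TFAP2A lie between -0.26 and 0.23 in all comparisons.

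Transcripts were compared next. SOX9 has 1 transcript in the table. ESR1-201 took 100%, 90.0 ± 8.18% and 100% of ESR1 TPM in MCF10A, MCF10AT1 and MCF10Ca1a, and FOXA1-201 took 88.0 ± 3.28%, 88.5 ± 3.07% and 89.2 ± 1.06% of FOXA1 TPM (SD, n = 3). GATA3 was split between GATA3-202 at 44.8 ± 7.36%, 55.7 ± 6.80% and 52.8 ± 5.67%, and GATA3-201 at 44.0 ± 5.90%, 34.8 ± 4.14% and 33.4 ± 3.90% (SD, n = 3). GATA3-204 took 6.11 ± 0.969%, 9.48 ± 2.71% and 11.4 ± 3.76% (SD, n = 3). TFAP2A was led by TFAP2A-203 at 49.6 ± 1.78%, 48.1 ± 2.38% and 46.0 ± 2.28%, followed by TFAP2A-202, which has another start site, at 27.4 ± 1.97%, 27.5 ± 1.67% and 25.2 ± 1.503% (SD, n = 3). In limma's test of transcript shares over 71093 transcripts, 0 of the 6 tested transcripts of these genes passed in any comparison, where 1.65%, 19.0% and 14.1% of all transcripts passed at the first step, over both steps and at the second step. In the 18 tests by limma, 1 unadjusted p was under 0.05, that of GATA3-204 in MCF10Ca1a against MCF10A (adjusted p = 0.115). The count was also 0 with shares of transcript TPM. FOXA1 and ESR1 thus rose mainly as the transcript that led in MCF10A.

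Other members of the same families were examined as a list of 33 paralogs, of which 15 were tested. In MCF10Ca1a against MCF10A, 5 rose and 9 fell, with a median log2 change of -0.30 against -0.05 over all genes tested. At the first step 4 rose and 7 fell (-0.11), and at the second 8 rose and 6 fell (0.40). SOX15 and SOX7 had the largest falls of the list, while SOX9 rose. SOX15 had 2728, 2443 and 2562 counts in MCF10A, 116, 131 and 128 in MCF10AT1 and then 21, 18 and 27 in MCF10Ca1a, or 39.8 ± 5.98, 1.72 ± 0.117 and 0.693 ± 0.0971 TPM (SD, n = 3). SOX7, a factor of endothelium, was at 34.8 ± 5.05, 0.104 ± 0.0221 and 0.368 ± 0.0449 TPM (SD, n = 3), and every library of the derived lines was far below every MCF10A library. The log2 change of SOX15 in MCF10Ca1a against MCF10A was -5.95 ± 0.119 (SE, adjusted p = 3.15e-14, edgeR). That of SOX7 was -6.66 ± 0.109 (SE, adjusted p = 5.20e-15, edgeR). SOX4 fell by 0.92 (adjusted p = 9.82e-08) and SOX12 rose by 0.49 (adjusted p = 2.72e-06, edgeR) on the log2 scale. SOX30, normally a testis gene, had 0 counts in each MCF10A library, 10, 6 and 13 in MCF10AT1 and then 29, 38 and 42 in MCF10Ca1a.

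**Figure D3:**
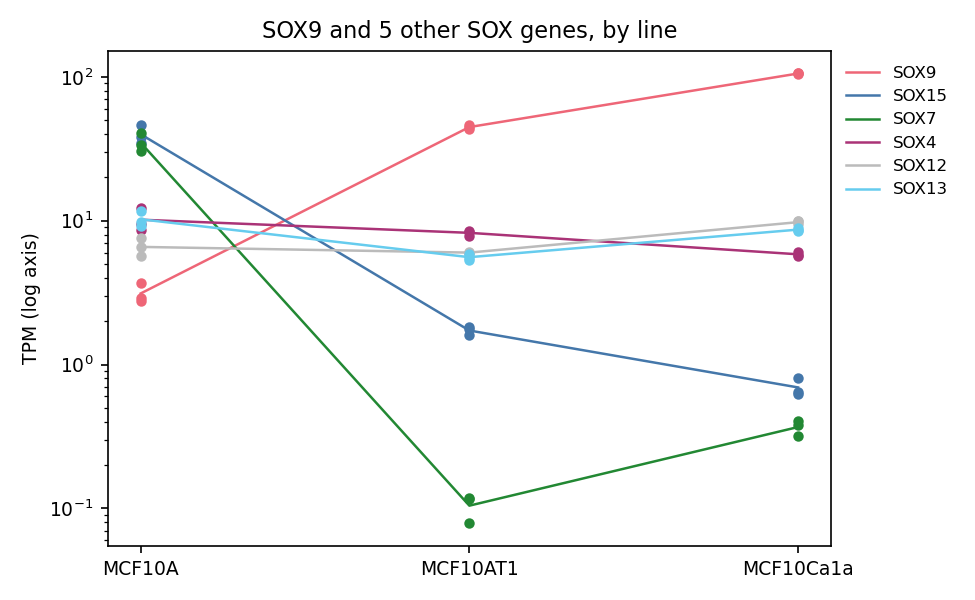
Level in TPM (log y axis) of SOX9 and 5 other SOX genes in the 3 lines; points are libraries and lines join line means (n = 3). SOX9 climbs from 3.12 to 105 TPM while SOX15 falls from 39.8 to 0.693 TPM and SOX7 from 34.8 to 0.368 TPM.

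ELF5 was not detectable, but related epithelial ETS factors were. ELF3 had 63, 71.8 and 75.0 estimated counts in MCF10A, 705, 604 and 577 in MCF10AT1 and then 1222, 1174 and 1276 in MCF10Ca1a. It stood in 3 separate steps, and its log2 change in MCF10Ca1a against MCF10A was 5.05 ± 0.0872 (SE, adjusted p = 8.11e-15, edgeR). EHF was at 16.3 ± 2.23, 11.9 ± 0.659 and 60.8 ± 0.653 TPM in the 3 lines (SD, n = 3), and its rise was at the second step (log2 change 2.13, adjusted p = 1.09e-12, edgeR, in MCF10Ca1a against MCF10AT1). ELF1 had the highest mean of these genes over the 9 libraries, at 54.0 ± 3.07, 37.0 ± 2.30 and 32.3 ± 0.457 TPM in the 3 lines (SD, n = 3), but was below EHF in MCF10Ca1a. It fell by 0.97 on the log2 scale in MCF10Ca1a against MCF10A (adjusted p = 3.01e-10, edgeR). GATA6 was the most abundant GATA paralog, at 2.57 ± 0.620, 4.65 ± 0.112 and 9.42 ± 0.101 TPM (SD, n = 3), and in MCF10Ca1a it stood as high as GATA3. It rose at both steps, and its log2 change in MCF10Ca1a against MCF10A was 1.78 ± 0.106 (SE, adjusted p = 1.65e-09, edgeR). TFAP2C, the most abundant AP-2 paralog, was at 12.9 ± 2.05, 18.7 ± 0.343 and 11.7 ± 0.731 TPM (SD, n = 3). It rose by 0.68 in MCF10AT1 (adjusted p = 1.41e-06) and fell by 0.25 in MCF10Ca1a (adjusted p = 0.00723, edgeR), both against MCF10A. FOXA2 was at 8, 6 and 2 counts in MCF10A and 0 in the derived lines, and FOXA3 did not exceed 4 counts in any library, so FOXA1 had no paralog of comparable count.

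Genes that oestrogen receptor alpha is known to induce in breast cancer cells moved in both directions. Of 33 listed, 26 were tested. In MCF10AT1 against MCF10A, 9 rose, 11 fell and 6 did not pass, and in MCF10Ca1a against MCF10A, 11 rose, 13 fell and 2 did not pass, with a median log2 change of -0.09 against -0.05 over all genes. At the second step 12 rose and 10 fell, with a median of 0.15. TFF1, TFF3, CXCL12, AGR3 and OLFM1 had 0 or 1 count in every library. GREB1, a coactivator of the receptor, was at 83.0, 74 and 92 counts in MCF10A, 79, 86 and 73 in MCF10AT1 and then 270, 266 and 260 in MCF10Ca1a. It rose at the second step (log2 change 2.64, adjusted p = 7.02e-11, edgeR), and at the first the change was -0.04 (adjusted p = 0.814, edgeR). EGR3, an immediate-early factor, rose by 3.42 in MCF10AT1 (adjusted p = 2.45e-10) and by 2.73 in MCF10Ca1a (adjusted p = 1.15e-09, edgeR) against MCF10A. CA12, a carbonic anhydrase, was at 62.0 ± 11.7, 18.4 ± 0.895 and 13.1 ± 0.656 TPM (SD, n = 3) and fell by 2.31 on the log2 scale in MCF10Ca1a against MCF10A (adjusted p = 1.10e-11, edgeR). MYB fell by 1.92 (adjusted p = 8.21e-09, edgeR).

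Of 22 other hormone receptor genes, 20 were tested. In MCF10Ca1a against MCF10A 11 rose and 7 fell, with a median log2 change of 0.36, at the first step 8 rose and 8 fell (0.0065), and at the second 12 rose and 6 fell (0.32). PPARG, a nuclear receptor known from fat cells, was at 5.40 ± 0.167, 36.6 ± 1.22 and 53.8 ± 0.572 TPM (SD, n = 3), and its log2 change in MCF10Ca1a against MCF10A was 3.13 ± 0.0541 (SE, adjusted p = 8.11e-15, edgeR). Most of its rise lay at the first step (2.89), and the second was small (0.24, adjusted p = 3.04e-04, edgeR). The orphan receptor gene ESRRG, a relative of ESR1, had 20, 14 and 14 counts in MCF10A, 54, 68 and 49 in MCF10AT1 and then 135, 118 and 133 in MCF10Ca1a (log2 change 3.91 ± 0.196, SE, adjusted p = 2.45e-10, edgeR, MCF10Ca1a against MCF10A). GPER1, the membrane oestrogen receptor, went the other way, with 331, 249 and 328 counts in MCF10A, 26, 24 and 23 in MCF10AT1 and then 7, 3 and 3 in MCF10Ca1a (-5.18 ± 0.247, SE, adjusted p = 1.43e-10, edgeR). GHR, the growth hormone receptor, fell from 220, 236 and 250 counts to 4, 7 and 3 (log2 change -4.71, adjusted p = 2.28e-10, edgeR). ESR2, which encodes oestrogen receptor beta, had 3.755 to 11 estimated counts per library and was not tested.

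All 15 receptor coregulators were tested. Over both steps 9 rose and 6 fell (median log2 change 0.44), at the first step 4 rose and 6 fell (-0.09), and at the second 11 rose and 1 fell (0.49). Over both steps the corepressor gene LCOR rose by 1.80 (adjusted p = 7.35e-12) and the acetyltransferase gene EP300 by 1.77 (adjusted p = 7.86e-12, edgeR) on the log2 scale. The coactivator gene NCOA2 fell by 0.68 (adjusted p = 1.76e-07) and the methyltransferase gene CARM1 by 0.55 (adjusted p = 1.58e-06, edgeR).

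NR3C1, the glucocorticoid receptor, whose ligand was in the medium of all lines, was at 37.1 ± 4.54, 38.7 ± 1.93 and 35.3 ± 0.552 TPM (SD, n = 3), far above ESR1. All 13 listed genes known to respond to it were tested. At the first step 8 rose and 3 fell, with a median log2 change of 0.24. Over both steps 6 rose and 6 fell (median log2 change -0.10), and in MCF10Ca1a against MCF10AT1 5 rose and 7 fell (-0.74). ANGPTL4, a secreted lipase inhibitor, had 21637, 19232 and 18921 counts in MCF10A, 7511, 7561 and 6434 in MCF10AT1 and then 4, 4 and 7 in MCF10Ca1a (log2 change -11.02 ± 0.158, SE, adjusted p = 1.73e-15, edgeR, MCF10Ca1a against MCF10A). ZBTB16 fell by 4.26 on the log2 scale (adjusted p = 5.09e-13, edgeR). FKBP5, a chaperone gene of the same list, fell by 1.74 (adjusted p = 2.91e-11), while PER1 rose by 1.90 (adjusted p = 1.28e-12, edgeR). KLF9 rose by 1.90 (adjusted p = 5.04e-12) and ERRFI1 by 1.90 (adjusted p = 2.53e-13, edgeR).

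**Figure D4:**
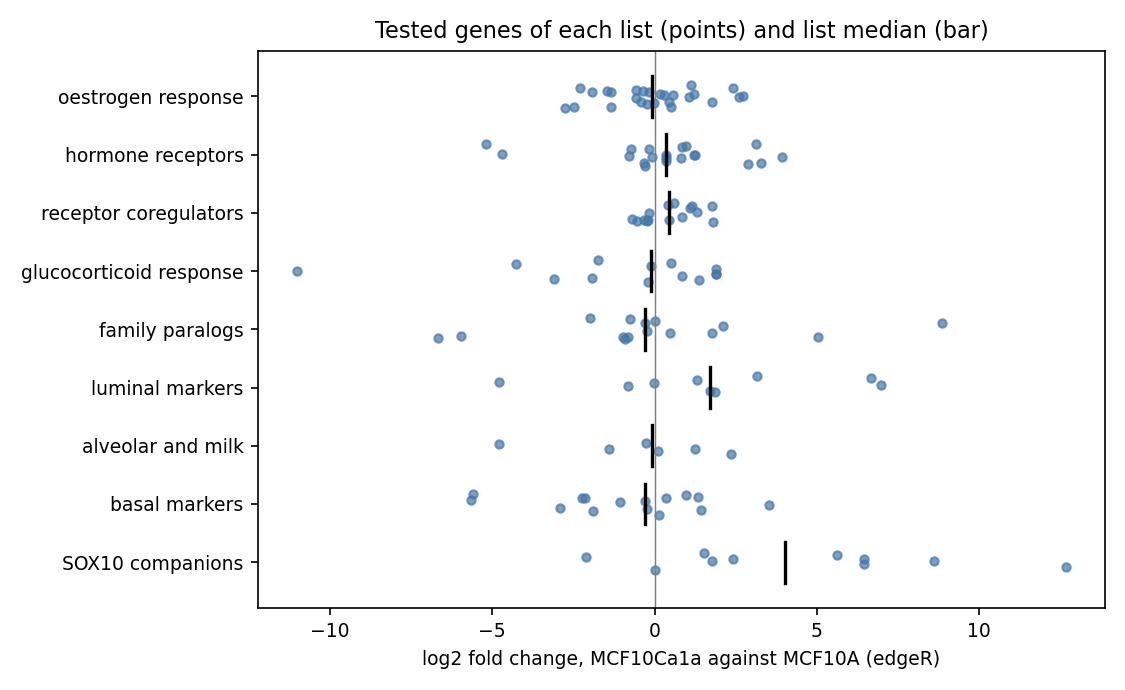
Fitted log2 fold change in MCF10Ca1a against MCF10A (x axis) of the tested genes of 9 lists (rows); each point is a gene and each bar a list median. The median is -0.09 for the oestrogen response list, 1.72 for the luminal markers and 4.01 for the SOX10 companions. Some SOX10 companions passed the filter on low counts only through a derived line, so their median is no test of the list. CDH19 and SOX30, at 0 in MCF10A, are drawn at fitted values that depend on the prior count.

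Of the 12 luminal markers, 9 were tested. All 9 passed in MCF10AT1 against MCF10A, 8 higher and 1 lower, with a median log2 change of 1.27. Over both steps 6 rose and 2 fell, with a median of 1.72. At the second step alone 4 rose and 3 fell, with a median of 0.035. The claudin gene CLDN4 had 131, 117 and 102 counts in MCF10A, 4894, 4563 and 4041 in MCF10AT1 and then 6315, 5806 and 6679 in MCF10Ca1a (6.66 ± 0.0974, SE, adjusted p = 2.10e-15, edgeR). As for SOX9, its change on the log2 scale was larger at the first step. KRT19, a luminal keratin, had 2, 6 and 3 counts in MCF10A, 20, 29 and 15 in MCF10AT1 and then 270, 250 and 243 in MCF10Ca1a (6.98 ± 0.259, SE, adjusted p = 1.08e-11, edgeR). MUC1, the apical mucin, was at 37.1 ± 6.26, 52.9 ± 1.14 and 1.42 ± 0.298 TPM (SD, n = 3) and fell by 4.80 on the log2 scale in MCF10Ca1a against MCF10A (adjusted p = 6.96e-14, edgeR). CD24 fell by 0.82 (adjusted p = 2.37e-09, edgeR).

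The alveolar and milk list, which holds genes of the programme that ELF5 directs, had 6 of 12 genes tested. Over both steps 2 rose and 2 fell (median log2 change -0.08), at the first step 1 rose and 4 fell (-0.76), and at the second 5 rose and 1 fell (0.68). The caseins CSN1S1, CSN2 and CSN3 and the lactose synthase subunit LALBA were at 0 in all 9 libraries. KIT, a marker of luminal progenitors, did not exceed 1 count. ALDH1A3, an aldehyde dehydrogenase of luminal progenitors, was at 65.8 ± 9.37, 75.6 ± 3.04 and 363 ± 0.970 TPM (SD, n = 3) and rose by 2.34 in MCF10Ca1a against MCF10A (adjusted p = 5.74e-13, edgeR). SLPI, a secreted protease inhibitor, fell by 1.42 on the log2 scale (adjusted p = 5.00e-10, edgeR).

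Of the 16 basal markers 15 were tested, and 5 rose and 8 fell in MCF10Ca1a against MCF10A (median log2 change -0.31). At the first step 6 rose and 8 fell (-0.27), and at the second 5 rose and 7 fell (-0.04). The basal keratin gene KRT14 was at 205 ± 33.1, 38.8 ± 1.59 and 4.78 ± 0.137 TPM (SD, n = 3) and fell by 5.65 on the log2 scale (adjusted p = 4.18e-15, edgeR). TAGLN, of contractile cells, fell by 5.60 (adjusted p = 1.17e-15, edgeR). KRT15 was at 33.1 ± 7.63, 208 ± 13.9 and 600.1 ± 13.9 TPM (SD, n = 3) and rose by 3.52 (adjusted p = 7.40e-15), and the hemidesmosome integrin gene ITGB4 rose by 1.42 (adjusted p = 3.79e-09, edgeR). TP63, a master factor of basal cells, was at 26.0 ± 3.57, 16.2 ± 0.816 and 31.1 ± 0.653 TPM (SD, n = 3), so that it was found beside SOX9 and FOXA1 in MCF10Ca1a.

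Genes often found with SOX10 in neural crest, glial or triple-negative breast cells were read beside SOX10, which was at 0 in MCF10Ca1a. Of 17 listed, 10 were tested. In MCF10Ca1a against MCF10A 8 rose and 1 fell (median log2 change 4.01), at the first step 7 rose and 2 fell (0.67), and at the second 7 rose and 3 fell (1.85). CDH19, COL9A3, MIA and GABRP were at 0, 0.0155, 0.0206 and 0.0648 CPM in MCF10A. They passed the filter on low counts only through a derived line, so only a rise against MCF10A was open to them. The tally and median against MCF10A are therefore no test of the list. CDH19, a cadherin of glial cells, had 0 counts in each MCF10A library, 9, 11 and 21 in MCF10AT1 and then 508, 509 and 536 in MCF10Ca1a (adjusted p = 1.80e-11 against MCF10A, edgeR). MIA, a secreted protein of cartilage and melanoma, had 1, 3 and 0 counts in MCF10A, 2055, 2154 and 1970 in MCF10AT1 and then 329, 277 and 305 in MCF10Ca1a (adjusted p = 2.41e-13 for MCF10Ca1a against MCF10A, edgeR). MIA was thus highest in MCF10AT1, and CDH19 in MCF10Ca1a, where SOX10 was at 0. The neurotrophin receptor gene NGFR was at 0.111 ± 0.0302, 1.36 ± 0.0362 and 10.5 ± 0.282 TPM (SD, n = 3). The WNT antagonist SFRP1 fell by 2.11 on the log2 scale in MCF10Ca1a against MCF10A (adjusted p = 2.05e-11, edgeR). S100B, a glial marker, did not exceed 1 count.

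The transcripts that lie against these genes were read next. The libraries were made with a stranded kit, but whether the quantification used the strand is not given in the sources used here, so reads of a gene and of an overlapping antisense transcript may not be separable. SOX9-AS1 had 1, 0 and 0 counts in MCF10A, 19, 22 and 21 in MCF10AT1 and then 47.0, 57 and 48.0 in MCF10Ca1a, the order of the lines in SOX9 itself. It passed against MCF10A in both derived lines (adjusted p = 1.70e-06 and 1.82e-09, edgeR). TFAP2A-AS1 rose in MCF10Ca1a against MCF10A by 1.70 ± 0.260 (SE, adjusted p = 3.49e-05) and TFAP2A-AS2 by 1.64 ± 0.281 (SE, adjusted p = 1.02e-04, edgeR), where TFAP2A itself was slightly lower. GATA3-AS1 did not exceed 5 counts, and PGR-AS1 and LINC01152 were at 0. POLR2F, which overlaps the SOX10 locus, was at 109.6 ± 1.40, 129 ± 1.79 and 71.5 ± 1.95 TPM (SD, n = 3), where SOX10 was at or near 0.

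Protein-coding neighbours of these genes were read last. TTC6, 0.38 kb from FOXA1, had 16, 12 and 11 counts in MCF10A, 9, 24 and 24 in MCF10AT1 and then 78, 54 and 64 in MCF10Ca1a. Like FOXA1 it rose over both steps, by 3.23 ± 0.319 (SE, adjusted p = 3.99e-07, edgeR), but its change at the first step did not pass (0.57, adjusted p = 0.198). MIPOL1, 37.2 kb away on the other side of FOXA1, rose by 0.63 (adjusted p = 5.95e-08, edgeR). SLC39A11, 520 kb from SOX9, rose by 1.79 (adjusted p = 3.29e-11, edgeR), and MAP2K6, 2567 kb away on the other side, fell by 4.16 (adjusted p = 2.12e-08, edgeR). GCNT2, 102 kb from TFAP2A, rose by 3.78 (adjusted p = 1.25e-13, edgeR) where TFAP2A was slightly lower, and SLC35B3, 1961 kb away, fell by 1.06 (adjusted p = 1.53e-09, edgeR). RMND1, 205 kb from ESR1, rose by 0.51 (adjusted p = 6.16e-06), and SYNE1, which overlaps ESR1, fell by 0.79 (adjusted p = 2.91e-05, edgeR). TAF3, 28.7 kb from GATA3, fell by 0.31 (adjusted p = 0.00373, edgeR), and USP6NL, 3385 kb away, fell by 1.91 (adjusted p = 3.64e-12, edgeR). All of these are log2 changes in MCF10Ca1a against MCF10A.

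Finally, the genes whose pattern over the 9 libraries was nearest to that of each tested gene were found by the root mean square difference of mean-centred log2 CPM, where 0 is identity. The lines fix most of this measure, since it has 3 levels with 3 libraries each. TMC6, THRB and RYR2 were nearest to ESR1 (0.111, 0.116 and 0.130). ARRDC4, PGPEP1 and LIN7B were nearest to FOXA1 (0.0760, 0.0854 and 0.0909). ZNF606, ZNF229 and FOXQ1, a forkhead gene, were nearest to SOX9 (0.0965, 0.168 and 0.235). The log2 CPM hold a prior count that shrinks changes of low genes, and the fitted log2 changes of ZNF606 against MCF10A, 5.52 and 6.39, were larger than those of SOX9, 4.02 and 4.98. MAP2K5, CDC14B and LRCH1 were nearest to GATA3 (0.0461, 0.0477 and 0.0528), and OTUD4, ITPRIPL2 and DIDO1 to TFAP2A (0.0292, 0.0351 and 0.0381).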

How the data were processed

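Polyadenylated RNA of 3 lines was sequenced in 3 libraries each from stranded libraries, per the labels' protocols. The submitters' processing notes name Salmon and hg38, with no version of Salmon. The deposited tables hold estimated counts and TPM per gene and per transcript, with 2 further gene count tables named length-scaled and scaled. The authors' annotation is not given in the sources used here. Deposited estimated counts were rounded. Genes were kept by filterByExpr (minimum count 10, total 15), leaving 17910 of 62666. The test was edgeR 4.0.16 quasi-likelihood (R 4.3.3) with TMM, all 9 libraries in 1 fit, Benjamini-Hochberg adjustment over all genes at 0.05. CPM used TMM-scaled totals. Transcript shares were tested with limma 3.58.1 on log2(transcript/other transcripts of the gene) (pseudocount 0.5, at least 10 counts in 3 libraries). Alternatives were DESeq2 1.42.0 and its size factors, no filter, both other count tables, the 2 lines compared alone, thinning, the replicate block, limma on log2(TPM + 1) and log2(TPM + 0.1), and each library left out. Added after the data were seen: the share test in genes with at least 100 counts per library.

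On simulated data with 200 of 17395 genes changed in MCF10AT1 against MCF10A, edgeR recovered 200 with 10 false calls. With 200 of 11669 genes changed in transcript use, the share test found 167 of them and called 65 others, and with nothing changed it still called 164. Among 9553 genes with at least 100 counts per library it found 159 and called 9 others, and called 0 with nothing changed. No pair of replicate libraries was identical. Chi-square per degree of freedom, which grows with the spread between 2 replicates, was 11.0 to 69.7 in MCF10A. It was 3.44 to 16.0 in MCF10AT1 and 2.32 to 3.97 in MCF10Ca1a, whose libraries held fewer counts. The highest values were those of the pairs with MCF10A replicate 1. Promoter windows came from RefSeq (GRCh38.p14).

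The 9 genes and all gene lists were chosen with earlier results of these data known. Named beside the 9 genes were up to 2 largest rises and 2 largest falls of each list in MCF10Ca1a against MCF10A (adjusted p under 0.05, higher line averaging 100 counts or more), antisense neighbours, the most abundant paralog of each gene, the 3 nearest patterns, and transcripts holding at least 10% of a gene's TPM. Other genes named were chosen after their values were seen. The lists were oestrogen response, hormone receptors, coregulators, glucocorticoid response, paralogs, luminal, alveolar, basal, SOX10 companions, other cell types and antisense neighbours. Intervals and limits for a count of 0 cover counting error only.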

Additional observations from a re-analysis of the deposited data

How the results depend on the processing

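ESR1, FOXA1 and SOX9 kept their direction and their side of the threshold in all 20 alternatives in each of the 3 comparisons. The log2 change of ESR1 on log2(TPM + 1) was smaller, at 0.49 in MCF10AT1 against MCF10A and 1.11 in MCF10Ca1a against MCF10A, since its level is near the pseudocount. The number of the 9 genes past the threshold in MCF10Ca1a against MCF10AT1 was 3, and became 5 on log2(TPM + 1), 5 on log2(TPM + 0.1) and 6 on log2(TPM + 1) without a filter. On these 3 scales GATA3 in MCF10AT1 against MCF10A was at -0.0927, -0.104 and -0.0927, TFAP2A in MCF10Ca1a against MCF10AT1 at 0.22, 0.22 and 0.22 (adjusted p = 0.0286, 0.0466 and 0.0486, limma), and relative to the median of all genes the latter was 0.09, 0.01 and 0.20. Relative to that median, GATA3 in MCF10AT1 against MCF10A was at -0.0228, 0.0091 and -0.0896. The cause was not tested. TFAP2A in MCF10Ca1a against MCF10AT1 passed with no filter on low counts (-0.15, adjusted p = 0.0424, edgeR), and GATA3 passed there on all 3 TPM scales (0.39, 0.44 and 0.39) and with the 2 lines alone (0.16, adjusted p = 0.0197).

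With each library left out in turn the number past the threshold was 4 to 6 in MCF10AT1 against MCF10A, 4 to 6 in MCF10Ca1a against MCF10A and 3 to 4 in MCF10Ca1a against MCF10AT1. These numbers include SPDEF, which had enough counts to be tested in some of these sets. There it passed in MCF10AT1 (adjusted p = 0.00290 to 0.0124, edgeR) and in MCF10Ca1a (2.07e-04 to 7.61e-04), both against MCF10A. Between MCF10Ca1a and MCF10AT1 it did not pass. The count for transcript shares was 0 in all 13 alternatives. Without single libraries the log2 share ratio of FOXA1-201 ran from -0.16 to 0.30 and that of TFAP2A-202 from -0.0803 to 0.0800 in MCF10AT1 against MCF10A, and those of GATA3-201 and GATA3-202 from -0.21 to 0.15 and from -0.26 to 0.14 in MCF10Ca1a against MCF10AT1.

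Libraries with the same replicate number in different lines did not deviate together over all genes, with correlations of -0.060 to 0.045 over 9 pairs. A batch effect that was small or limited to few genes could go unseen here. Whether the numbers mark a shared batch was therefore not settled. With the replicate block 4, 5 and 3 of the 9 genes passed in the 3 comparisons, and no call of a tested gene changed. Depth limits the statements on PGR, ELF5, SPDEF and SOX10 most in MCF10Ca1a.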
